A study of Mus musculus with 3 samples.

Results

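The 10 genes described here, of 32285 measured, are the core genes of antigen presentation by major histocompatibility complex (MHC) class II in the mouse. They were chosen by symbol: the chain genes H2-Aa, H2-Ab1 and H2-Eb1, the invariant chain gene Cd74, H2-DMa, H2-DMb1 and H2-DMb2, H2-Oa and H2-Ob, and the regulator Ciita. Each was followed, as raw UMIs (unique molecular identifiers, each standing for 1 captured RNA molecule), through 5 cell classes of the mouse duodenum and 6 sequencing wells. The study profiled duodenal immune cells by droplet-based 3' single-cell RNA sequencing in 3 libraries. PFF 1 came from C57B6/J mice whose duodenal wall had been injected with preformed fibrils (PFF) of recombinant mouse alpha-synuclein, the protein that aggregates in Parkinson's disease. Saline 1 and saline 2 came from C57B6/J mice injected with saline. All mice were male, per the series title, carried no further labelled allele, and were examined 30 days after injection. Cells came partly from a sort on CD45 and partly from CD11b magnetic beads, so the share of each class is set by that enrichment. PFF 1 and saline 1 were batch 1 and saline 2 was batch 2. The labels do not say how many animals made up a library, and every p-value below measures only the spread between these libraries or wells.

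Class II molecules are held by cells that show peptides from ingested proteins to CD4 T cells. An alpha and a beta chain pair in the endoplasmic reticulum around the invariant chain, which blocks the groove and takes the pair to endosomes. There cathepsins trim the invariant chain to a short peptide, H2-DM exchanges that peptide for antigen, and H2-DO holds H2-DM back. CIITA, the protein of Ciita, is the coactivator that switches the whole group on. It is recruited by factors already bound to the X and Y boxes of each promoter. Dendritic cells, B cells and macrophages are the professional presenters, intestinal epithelium can express class II when exposed to interferon gamma, and resting mouse T cells are known for very little of it.

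Of the members, 8 lie in the class II region of chromosome 17 and all but H2-Aa of these are on the plus strand. On GRCm38, H2-Oa spans chr17:34092340-34095234, H2-DMa chr17:34119541-34139101, H2-DMb2 chr17:34143307-34151555 and H2-DMb1 chr17:34153072-34160230. Further along lie H2-Ob at chr17:34238903-34254414, H2-Ab1 at chr17:34257689-34269419, H2-Aa at chr17:34282744-34287823 and H2-Eb1 at chr17:34305867-34316674. Ciita is at chr16:10480059-10528418. Promoter windows of 300 bases, 250 before and 50 after the RefSeq start, were read for 7 of the 10 members, with 8 windows in all since H2-DMa has an alternative start. Cd74 was left out of the member windows, and H2-Ab1 and Ciita had no window. The 6 windows shown belong to the gene pairs whose ratios differed between cell classes (H2-DMb2 with H2-DMb1, H2-Ob with H2-Oa) and to 2 of the chains. They are RefSeq sequence on GRCm38.p6, printed 5′ to 3′ in the direction of each gene. Capitals mark the X box core CTAGNNAC, the Y box core GATTGG, or its reverse complement.
H2-DMb1, chr17:34152941-34153240, plus strand: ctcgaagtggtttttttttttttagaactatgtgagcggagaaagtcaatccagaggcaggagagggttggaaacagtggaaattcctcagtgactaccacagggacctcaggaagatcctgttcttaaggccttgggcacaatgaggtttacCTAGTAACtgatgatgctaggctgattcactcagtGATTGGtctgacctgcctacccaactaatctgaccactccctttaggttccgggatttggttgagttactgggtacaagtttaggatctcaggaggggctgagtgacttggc
H2-DMb2, chr17:34144999-34145298, plus strand: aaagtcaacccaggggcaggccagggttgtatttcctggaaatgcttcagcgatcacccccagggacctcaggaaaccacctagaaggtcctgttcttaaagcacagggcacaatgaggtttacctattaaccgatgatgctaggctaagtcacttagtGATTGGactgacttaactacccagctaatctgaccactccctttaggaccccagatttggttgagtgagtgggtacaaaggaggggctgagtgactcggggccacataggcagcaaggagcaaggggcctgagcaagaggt
H2-Ob, chr17:34238655-34238954, plus strand: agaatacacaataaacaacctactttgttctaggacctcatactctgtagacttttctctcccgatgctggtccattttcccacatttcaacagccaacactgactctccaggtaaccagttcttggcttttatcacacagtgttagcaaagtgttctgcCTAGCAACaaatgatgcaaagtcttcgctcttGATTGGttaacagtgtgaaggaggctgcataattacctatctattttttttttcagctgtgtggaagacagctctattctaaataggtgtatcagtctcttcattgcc
H2-Oa, chr17:34092129-34092428, plus strand: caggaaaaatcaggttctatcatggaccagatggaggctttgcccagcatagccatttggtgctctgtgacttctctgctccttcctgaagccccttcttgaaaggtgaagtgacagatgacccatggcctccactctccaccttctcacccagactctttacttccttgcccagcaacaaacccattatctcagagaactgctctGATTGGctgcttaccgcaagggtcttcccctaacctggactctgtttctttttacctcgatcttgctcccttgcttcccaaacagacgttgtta
H2-Eb1, chr17:34305617-34305916, plus strand: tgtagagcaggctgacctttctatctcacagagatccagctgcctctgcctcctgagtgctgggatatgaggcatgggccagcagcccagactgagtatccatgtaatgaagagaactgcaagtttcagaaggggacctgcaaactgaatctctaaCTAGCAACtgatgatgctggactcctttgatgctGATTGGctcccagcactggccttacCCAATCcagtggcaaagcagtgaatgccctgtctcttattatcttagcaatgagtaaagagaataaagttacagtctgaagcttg
H2-Aa, chr17:34287774-34288073, minus strand: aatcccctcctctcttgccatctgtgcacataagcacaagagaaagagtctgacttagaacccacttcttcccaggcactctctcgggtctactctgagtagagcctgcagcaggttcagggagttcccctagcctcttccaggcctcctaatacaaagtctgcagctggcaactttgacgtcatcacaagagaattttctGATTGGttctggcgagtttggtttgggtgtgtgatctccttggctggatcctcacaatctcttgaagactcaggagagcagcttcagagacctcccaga

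Both cores, searched on both strands, stood in the windows of H2-DMb1, H2-Ob and H2-Eb1. Their X box cores began 97, 90 and 94 bases before the start and their Y box cores 62, 58 and 60 bases before it. H2-DMb2 held a Y box core 91 bases before the start, H2-Oa one at 44 bases and H2-Aa one at 49 bases, each without that X box core. H2-DMa held a Y box core at 199 bases in 1 of its windows and neither core in the other. Of 32851 promoter windows of the same length, 10.4% held the X box core, 16.1% the Y box core and 1.59% both. The cores do not overlap each other in letters, and a match describes the sequence, not a bound site.

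Each saline file held 4 wells, and wells 1 to 3 had identical counts in both files. Those wells were therefore counted once, as shared saline wells 1 to 3, while "saline 1" and "saline 2" below mean the well found in that file alone. PFF 1 held 15352 cells. Saline 1 and saline 2 held 5631 and 5734, and shared saline wells 1 to 3 held 1509, 3648 and 8732. Total UMIs ran from 7553070 in shared saline well 1 to 142955760 in PFF 1. PFF 1 and saline 2 shared 119 barcodes, 0.775% of the PFF 1 barcodes. Their median depth was 696 UMIs in PFF 1 and 59931 UMIs in saline 2. Of the 97 that were deepest in saline 2, 96 held under 3% as many UMIs in PFF 1 (median 1.03%). Among them were 32 of the 407 PFF 1 enterocytes, 2 of 572 B cells and none of the dendritic cells or macrophages. Counts without such barcodes are given where they change a result. Cells were gated on marker genes that include none of the 10 members, and 30107 of 33284 cells that passed quality filters met exactly 1 of the 5 gates. They were 1161 B cells, 230 macrophages, 253 dendritic cells, 1804 enterocytes and 26659 T cells. The defining markers were present: Cd79a in 96.3% of B cells, C1qa in 87.4% of macrophages, Flt3 in 88.5% of dendritic cells, Alpi in 90.5% of enterocytes and Cd3e in 99% of T cells. Markers were not all private to a class. Epcam had a UMI in 79.1% of dendritic cells and 47.5% of T cells, and Mertk in 54.5% of enterocytes. In T cells, Itgax had a UMI in 27.2% and Cd79b in 20.5% of cells. The part of such shared markers in the results was not tested.

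Together the 10 genes made up 1.52% of all UMIs of B cells, 2.48% of those of macrophages and 4.19% of those of dendritic cells, against 0.00798% in enterocytes and 0.00864% in T cells. In dendritic cells they took between 3.44% (saline 1) and 4.85% (shared saline well 1) of all UMIs by well. Macrophages ranged from 1.95% in saline 1 to 4.85% in shared saline well 1, so their highest well reached the dendritic range while their lowest lay near B cells. B cells ranged from 1.09% in shared saline well 3 to 1.87% in shared saline well 2. Enterocytes held 0.00516% to 0.0107% in the 5 wells with at least 10 such cells, and T cells held 0.00741% to 0.00921% in 6 wells. Every B cell had at least 1 UMI of the group, and only 2 of 230 macrophages and 3 of 253 dendritic cells had none. Cells of at least 1000 UMIs were then thinned to 1000 UMIs, and shallower cells were left out. That kept 8 of 12 macrophages in saline 1, 9 of 18 in each of shared saline wells 1 and 2, and 305 of 407 PFF 1 enterocytes. A member was seen in 98.9% to 100% of B cells by well, 87.5% to 100% of macrophages and 94.4% to 100% of dendritic cells. In enterocytes the same share was 7.78% to 12.9% and in T cells 5.52% to 8.92%. Unthinned, 62.1% of enterocytes and 60.9% of T cells had no member UMI, at median depths of 9075 and 6826 UMIs per cell.

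**Figure D1:**
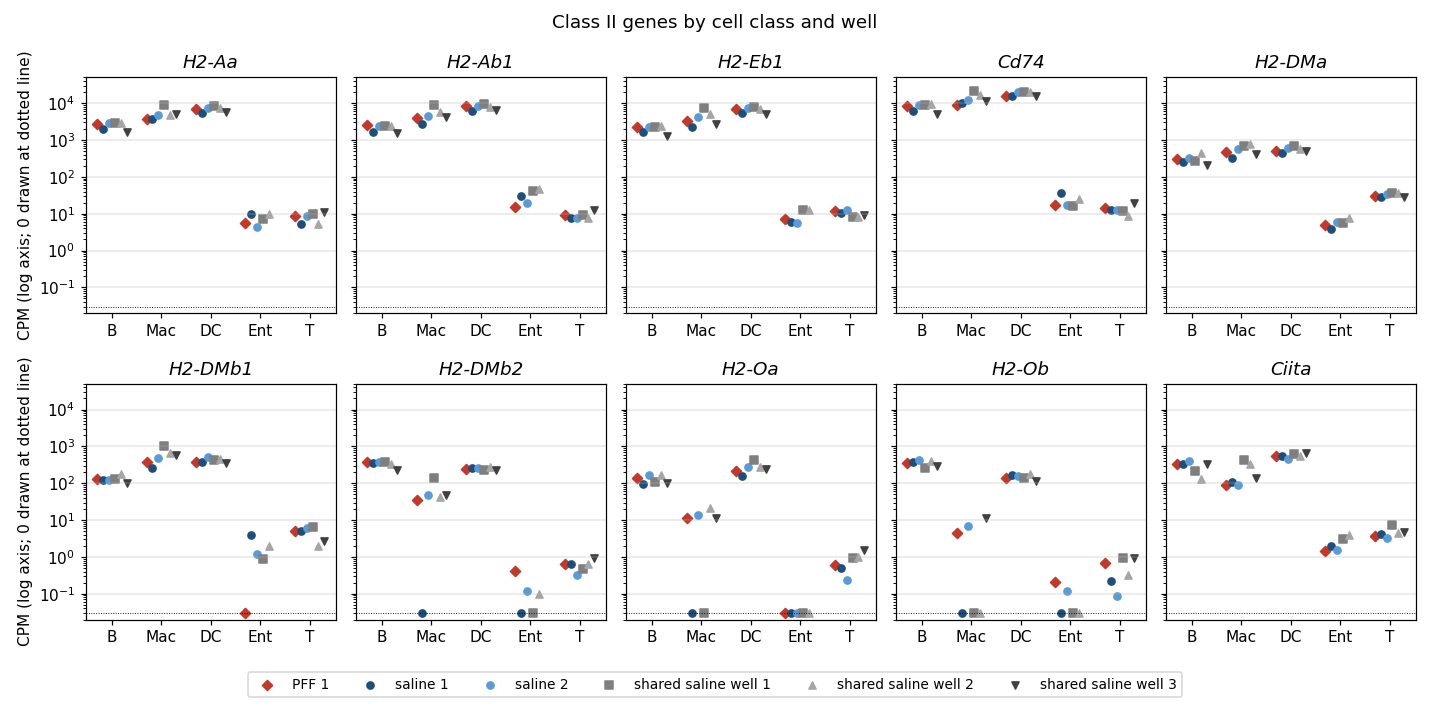
CPM of each class II gene (log axis) in B cells, macrophages (Mac), dendritic cells (DC), enterocytes (Ent) and T cells, 1 point for each well with at least 10 cells of the class. The chain genes and Cd74 lie at 1312 CPM or above in the 3 presenting classes and between 4 and 50 CPM in enterocytes and T cells, and H2-Oa sits at the 0 line in every enterocyte sum.

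The alpha chain gene H2-Aa and the beta chain genes H2-Ab1 and H2-Eb1 were high in all 3 presenting classes, with their highest medians in dendritic cells. Values are CPM, a gene's UMIs scaled to a fixed total of all UMIs of the class in that well, and are given as lowest, median and highest well. H2-Ab1 had 1522, 2350 and 2577 CPM in B cells. It had 2745, 4370 and 9046 CPM in macrophages and 6168, 8111 and 9508 CPM in dendritic cells. The B cell and dendritic ranges did not overlap, and the macrophage range overlapped the dendritic one only through shared saline well 1. H2-Ab1 had 15.2, 29.7 and 45.9 CPM in enterocytes and 7.44, 8.47 and 13 CPM in T cells. H2-Aa had 1663, 2799 and 2969 CPM in B cells, 3756, 4863 and 9070 CPM in macrophages and 5385, 7006 and 8319 CPM in dendritic cells. Its enterocyte values of 4.4 to 9.89 CPM lay inside or just below its T cell values of 5.12 to 11.3 CPM. H2-Eb1 followed the same order, with medians of 2259 CPM in B cells, 3655 CPM in macrophages and 6860 CPM in dendritic cells, against 6.97 CPM in enterocytes and 9.66 CPM in T cells.

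Cd74, on chromosome 18 (60803848 to 60812652, GRCm38), encodes the invariant chain, which is also a surface receptor for the cytokine MIF. It had 5123, 8522 and 9371 CPM in B cells, 9205, 11861 and 20846 CPM in macrophages and 15296, 18156 and 20466 CPM in dendritic cells. Its lowest B cell value was in shared saline well 3, the well that was also lowest for all 3 chains in B cells. Enterocytes had 16.4, 17.1 and 37.6 CPM and T cells had 8.41, 12.6 and 19.8 CPM.

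H2-DMa and H2-DMb1 or H2-DMb2 make the alpha and beta chains of H2-DM, the peptide exchanger. H2-DMa had 215, 282 and 443 CPM in B cells, 325, 521 and 773 CPM in macrophages and 444, 541 and 671 CPM in dendritic cells. Enterocytes held 3.96 to 7.47 CPM of it, below the 27.7, 32.6 and 36.6 CPM of T cells in every well. The beta chain genes split by class. H2-DMb1 had 103, 125 and 182 CPM in B cells, 253, 532 and 997 CPM in macrophages and 348, 406 and 524 CPM in dendritic cells. H2-DMb2 had 236, 366 and 377 CPM in B cells, 0, 45.0 and 142 CPM in macrophages and 226, 247 and 275 CPM in dendritic cells. In macrophages the H2-DMb2 values rest on 0 to 15 UMIs per well, and the 0 in saline 1 comes from only 12 cells. H2-DMb1 and H2-DMb2 are neighbouring copies. Of the 50-base stretches in the last 500 bases of the H2-DMb1 transcript, 20.4% also occur in H2-DMb2 transcripts, and 0% of those of H2-DMb2 occur in H2-DMb1 transcripts, so the split of reads between these 2 genes is uncertain.

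H2-Oa and H2-Ob encode H2-DO, which restrains H2-DM. H2-Oa had 92.9, 125 and 172 CPM in B cells, 0, 11.6 and 21.5 CPM in macrophages and 160, 253 and 423 CPM in dendritic cells. H2-Ob had 266, 363 and 418 CPM in B cells, 0, 2.28 and 11.7 CPM in macrophages and 118, 149 and 177 CPM in dendritic cells. B cells thus held the most H2-Ob and dendritic cells mostly the most H2-Oa, while macrophages had 9 UMIs of H2-Oa and 4 of H2-Ob over all 230 cells. No H2-Oa UMI was seen among 26449593 UMIs of 1804 enterocytes, where 3 counts would be 0.113 CPM, and H2-Ob had 2 UMIs there. T cells had 0.768 CPM of H2-Oa and 0.615 CPM of H2-Ob over all wells.

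Ciita, the regulator, had 130, 332 and 404 CPM in B cells, 90.6, 125 and 427 CPM in macrophages and 452, 545 and 673 CPM in dendritic cells. The macrophage values of PFF 1, saline 1 and saline 2 stayed between 90.6 and 108 CPM, below every B cell well, while shared saline wells 1 and 2 had 427 and 343 CPM from 18 and 16 UMIs. Enterocytes had 1.43 to 3.83 CPM and T cells 3.19 to 7.43 CPM.

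Class contrasts were fitted over all 11386 genes with the well as a block, by edgeR's quasi-likelihood test with Benjamini-Hochberg adjustment, and a gene is called at an adjusted p under 0.05. All log2 fold changes run from the first class named over the second. Every one of the 10 members was higher in B cells than in T cells, where 18.7% of all genes were called higher. The same held for all 10 in macrophages over T cells (16.7% of all genes higher) and in dendritic cells over T cells (21.6% higher). The median member log2 fold change was 7.64 in B cells over T cells, 6.37 in macrophages over T cells and 8.52 in dendritic cells over T cells, against medians over all genes of −0.18, −0.51 and −0.33. Cd74 gave log2 fold changes of 9.05 ± 0.32 (SE), 9.70 ± 0.33 and 10.42 ± 0.34 in those contrasts. H2-DMa gave the smallest in B cells, 3.15 ± 0.17, and in dendritic cells, 4.17 ± 0.18. In macrophages the smallest was H2-Ob at 3.12 ± 1.17 (edgeR adjusted p = 0.0287), which rests on 4 UMIs. That call was lost without PFF 1, at 3.34 with an adjusted p of 0.126 by edgeR. The gene filter ran over the sums of all 5 classes, including those where a member is high. In the fit of PFF 1 against saline within macrophages, 7 of 10 members passed it. H2-DMb2, H2-Oa and H2-Ob did not, so the count of 10 for macrophages hangs partly on the wider filter.

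B cells over dendritic cells gave 8 members lower and 1 higher, where 21.7% of all genes were lower and 24.3% higher. H2-Ab1 was lower at −1.99 ± 0.25 (SE) on the log2 scale, H2-Eb1 at −1.84 ± 0.22, H2-DMb1 at −1.78 ± 0.27, H2-Aa at −1.59 ± 0.22 and Cd74 at −1.37 ± 0.23. Smaller differences were found for H2-DMa, −1.01 ± 0.17, H2-Oa, −1.01 ± 0.26, and Ciita, −0.86 ± 0.26 (edgeR adjusted p = 0.00639). H2-Ob was the member higher in B cells, at 1.12 ± 0.25 (edgeR adjusted p = 0.000404). H2-DMb2 had a log2 fold change of 0.33 ± 0.21 and did not pass (edgeR adjusted p = 0.210).

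Macrophages over dendritic cells gave 8 members lower and none higher, where 12.2% of all genes were lower and 8.62% higher. Of these, H2-Ob, H2-Oa and H2-DMb2 were too low to pass the gene filter in the fit within macrophages. The differences were largest in the genes of H2-DO, with H2-Ob at −5.05 ± 0.58 and H2-Oa at −4.59 ± 0.48. H2-DMb2 was lower at −2.59 ± 0.31 and Ciita at −1.99 ± 0.31, while H2-DMb1 was at 0.12 ± 0.27 (edgeR adjusted p = 0.823) and H2-DMa at −0.29 ± 0.17 (edgeR adjusted p = 0.251). H2-Eb1 was lower at −1.0 ± 0.22 and H2-Ab1 at −0.95 ± 0.25. H2-Aa at −0.70 ± 0.22 (edgeR adjusted p = 0.0189) and Cd74 at −0.72 ± 0.23 (edgeR adjusted p = 0.0208) passed only under part of the settings. With relative log expression scaling in place of TMM they were −0.49 (edgeR adjusted p = 0.101) and −0.51 (edgeR adjusted p = 0.115). That scaling moved the median of all genes here from −0.15 to −0.01, and the share of calls that were higher in macrophages from 41.3% to 52.8%. In macrophages over T cells it moved the median from −0.51 to −0.25 and that share from 35.5% to 48.6%.

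Because a ratio of 2 genes within a class needs no scaling, such ratios were put to 9 comparisons between classes within wells. Each used an exact two-sided sign-flip permutation test. Some ratios entered more than 1 comparison, and all comparisons were made against dendritic cells. The ratios were chosen after the levels had been seen, and 0.5 was added to each count. With 6 wells the smallest p the test allows is 0.03125, which is 0.0402 after Benjamini-Hochberg adjustment over the 9 comparisons. H2-DMb2 over H2-DMb1 had a median of 2.79 in B cells (1.76 to 3.13 by well) and 0.624 in dendritic cells (0.481 to 0.702). The B cell ratio was higher in 6 of 6 wells, by a mean log2 difference of 2.10 ± 0.40 (SD), with the smallest exact p. In macrophages the ratio was 0.0926 (0.0667 to 0.153), below that of dendritic cells in 6 of 6 wells, with the same exact p. H2-Ob over H2-Oa was 2.48 in B cells (2.26 to 3.93) and 0.610 in dendritic cells (0.342 to 1.04), again higher in 6 of 6 wells with the smallest exact p.

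Cd74 over the sum of the 3 chains was 1.16 in B cells (1.09 to 1.22), 0.932 in macrophages (0.820 to 1.16) and 0.873 in dendritic cells (0.737 to 0.921). Both B cells and macrophages lay above dendritic cells in 6 of 6 wells, each with the smallest exact p. Ciita over the 3 chains was 0.0133 in macrophages and 0.0246 in dendritic cells, lower in 6 of 6 wells with the smallest exact p. In B cells that ratio was 0.0494, higher than in dendritic cells in 5 of 6 wells, and did not pass (exact permutation p = 0.0938, also 0.0938 adjusted).

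**Figure D2:**
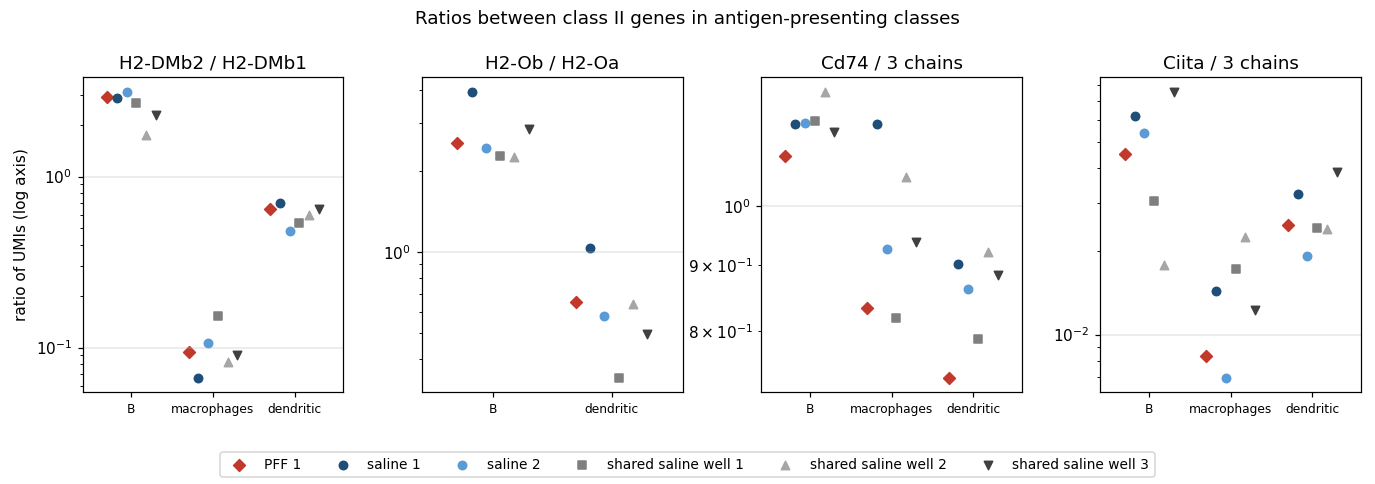
Ratios of UMIs between class II genes (log axes, 1 point a well) in B cells, macrophages and dendritic cells, from left to right as labelled. H2-DMb2 over H2-DMb1 runs from 1.76 to 3.13 in B cells, 0.0667 to 0.153 in macrophages and 0.481 to 0.702 in dendritic cells, with no overlap, whereas Ciita over the 3 chains overlaps between B cells and dendritic cells.

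Enterocytes held class II transcripts at the level of T cells, with a different make-up. Over T cells, 2 members were higher, 5 lower and 3 did not pass, where 34.2% of all genes were higher and 40.5% lower. H2-Ab1 was higher at a log2 fold change of 2.12 ± 0.29 (SE; edgeR adjusted p = 9.74e-08) and Cd74 at 1.11 ± 0.27 (edgeR adjusted p = 0.000485). H2-Aa at 0.22 ± 0.28, H2-Eb1 at 0.14 ± 0.27 and Ciita at −0.29 ± 0.37 did not pass (edgeR adjusted p = 0.481, 0.646 and 0.483). These values depend on scaling. Median CPM in enterocytes and T cells was 17.1 and 12.6 for Cd74, 7.33 and 8.72 for H2-Aa, and 6.97 and 9.66 for H2-Eb1. Relative log expression scaling moved the median of all genes here from −0.21 to −0.02. The share of calls that were higher in enterocytes moved from 45.8% to 51.4%. H2-DMa was lower at −2.05 ± 0.20 (edgeR adjusted p = 7.81e-11) and H2-DMb1 at −1.47 ± 0.41 (edgeR adjusted p = 0.0019). H2-Oa, H2-DMb2 and H2-Ob were also called lower, on 0, 4 and 2 UMIs in enterocytes. They were tested because the gene filter ran over all classes, including those where they are high. In the fit of PFF 1 against saline within enterocytes, 5 of 10 members passed it, and these 3 were not among them. The calls of H2-DMb2 and H2-Ob, at adjusted p of 0.0400 and 0.0354 by edgeR, were lost without saline 1 and without any 1 of the shared saline wells, with log2 fold changes of −1.26 to −1.11 for H2-DMb2 and −2.10 to −1.43 for H2-Ob. That of H2-DMb1 was lost with a stricter gate, at −0.73 (edgeR adjusted p = 0.0861), and at up to 25% mitochondrial UMIs, at −0.78 (edgeR adjusted p = 0.0533). The median over the members was −0.88, against −0.21 over all genes. It takes in H2-Oa, H2-DMb2 and H2-Ob, though it does not depend on the value given to H2-Oa below it. The higher H2-Ab1 and Cd74 rest on which barcodes count as enterocytes or T cells. When cells that met more than 1 gate were given to the gate they met best, H2-Ab1 was at −0.13 (edgeR adjusted p = 0.690) and Cd74 at −1.29 (edgeR adjusted p = 0.000378).

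H2-Ab1 over H2-Aa was 4.37 in enterocytes (2.71 to 5.34 over 5 wells) and 1.14 in dendritic cells (1.10 to 1.22), higher in 5 of 5 wells. The test cannot go below 0.0625 with 5 wells, which is the exact p it gave (0.0703 adjusted). In T cells H2-DMa over H2-Ab1 was 3.77 (2.13 to 4.83), against 0.0712 (0.0630 to 0.0784) in dendritic cells, higher in 6 of 6 wells with the smallest exact p over 6 wells. The B cell markers differed in these classes. Cd79a had a UMI in 0.166% of enterocytes and 0.945% of T cells. Cd79b, the highest of the list in both, had one in 0.831% and 20.5%, and Fcmr in 0% and 0.173%. The part of B cell RNA in the members' low counts was not tested.

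Within a class, the share of class II UMIs per cell spread more widely among macrophages than among B cells. Their median depths were 1855.5 and 6362 UMIs per cell, and the spread was not compared at like depth. The median B cell devoted 1.69% of its UMIs to the 10 genes, with 0.778% at the 10th percentile and 2.65% at the 90th. The median macrophage devoted 3.50%, with 0.418% and 6.68% at those percentiles, and the median dendritic cell 4.13%, with 1.85% and 6.19%. The lower tail differed by well. Its 10th percentile was 0.342% in the 72 PFF 1 dendritic cells, against 1.77% to 3.42% in the saline wells (20 to 64 cells each). In macrophages it was 0.208% in PFF 1, 0.322% in saline 1 and 0.756% to 1.95% in the other wells. Median depth in dendritic cells was 19462.5 UMIs in PFF 1 and 7744.5 to 25734 UMIs in the saline wells, so PFF 1 was not the shallowest. The 3 T cell markers in gated dendritic cells summed to 54.3 CPM in PFF 1, the highest, against 0 to 44.9 CPM in the saline wells (4.998 CPM in saline 2). The marker sums of the other classes in PFF 1 dendritic cells lay inside the range of the saline wells. They were 366 CPM for enterocyte markers (314 to 408 CPM in saline wells), 196 CPM for macrophage markers (149 to 314 CPM) and 19.8 CPM for B cell markers (15.9 to 56.1 CPM). The part of any of these markers in the low tail was not tested.

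**Figure D3:**
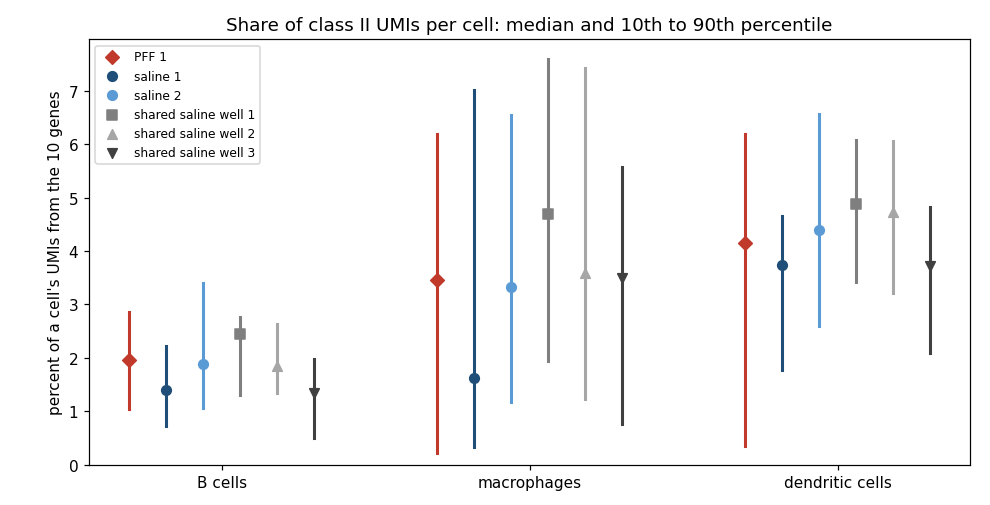
Percent of a cell's UMIs that came from the 10 class II genes, as the median (marker) and the span from the 10th to the 90th percentile of cells (line), by class and well. The PFF 1 dendritic line starts at 0.342% where those of the saline wells start at 1.77% or above, while its median of 4.16% lies among theirs.

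PFF 1 was then set against saline 1 and saline 2 within each class. No member was called in any class: by edgeR's quasi-likelihood test on 1 PFF library and 2 saline libraries, 0 of 10 members passed in B cells, 0 of 7 tested in macrophages, 0 of 10 in dendritic cells, 0 of 5 tested in enterocytes and 0 of 10 in T cells. None had an unadjusted p under 0.05 either. Over all genes the calls were 0% of 8719 in B cells (58 genes at an unadjusted p under 0.05, 0 called by DESeq2), 0.395% of 4051 in macrophages, 0.207% of 9664 in dendritic cells, 0.0166% of 12069 in enterocytes and 0.0127% of 15795 in T cells. With 1 PFF library the spread comes from the saline libraries alone, and a batch term leaves no residual degrees of freedom.

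In B cells H2-Ab1 had 2577 CPM in PFF 1, against 1624 CPM in saline 1 and 2447 CPM in saline 2, a log2 fold change of 0.37 ± 0.47 (SE). Cd74 had 8335 CPM in PFF 1, against 6054 and 8710 CPM in saline 1 and saline 2, or 0.21 ± 0.50. Cd74 in PFF 1 lay between the saline libraries, and H2-Ab1 lay above both by less than the gap between them. H2-Ob was the member below both, with 353 CPM in PFF 1, against 372 and 418 CPM in saline 1 and saline 2. Within batch 1 alone the Cd74 value was 0.57, and against saline 2 alone it was −0.08. Ciita had 344 CPM in PFF 1, against 323 and 404 CPM in the saline libraries.

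In macrophages H2-Ab1 had 4058 CPM in PFF 1, against 2745 CPM in saline 1 and 4546 CPM in saline 2 (log2 fold change 0.27 ± 1.54), and the saline 1 value comes from 12 cells. Within batch 1 it was 1.00 and against saline 2 alone −0.20. Cd74 had 9205 CPM in PFF 1, against 10112 and 12480 CPM in saline 1 and saline 2, and was lower than in all 5 saline wells. The dendritic and B cell markers in these gated macrophages were lowest in PFF 1 too, while the T cell and enterocyte markers were not. T cell markers summed to 54.7 CPM in PFF 1, against 0 to 176 CPM in the saline wells. Enterocyte markers summed to 47.9 CPM, against 0 to 215 CPM. The 10 dendritic markers, of which 4 to 6 had a UMI, summed to 237 CPM in PFF 1, against 349 to 681 CPM in the saline wells, and the 10 B cell markers, of which 2 to 7 had a UMI, to 150 CPM, against 153 to 546 CPM. Over all macrophages, Zbtb46 was at 0% and Flt3 and Cd79a at 0.435% of cells each. Their part in the Cd74 values was not tested. H2-DMb2, H2-Oa and H2-Ob were too low in macrophages to be tested.

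In dendritic cells H2-Ab1 had 8222 CPM in PFF 1, against 6168 CPM in saline 1 and 8546 CPM in saline 2 (log2 fold change 0.17 ± 0.65). Within batch 1 it was 0.56 and against saline 2 alone −0.14. H2-DMb1 had 373 CPM in PFF 1, against 370 and 524 CPM in the saline libraries, a log2 fold change of −0.28 ± 0.47 that was 0.16 within batch 1 and −0.57 against saline 2 alone. All 10 members of PFF 1 dendritic cells lay inside the range of the 5 saline wells.

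In enterocytes H2-Ab1 had 15.2 CPM in PFF 1, against 29.7 CPM in saline 1 and 19.4 CPM in saline 2 (log2 fold change −0.67 ± 0.79, and −0.66 without barcodes found in more than 1 well). In T cells the member with the largest value was H2-Ob, with 0.697 CPM in PFF 1 (72 UMIs), against 0.227 CPM in saline 1 (4 UMIs) and 0.0871 CPM in saline 2 (3 UMIs). Its log2 fold change was 2.25 ± 1.09, with an adjusted p of 1.00 by edgeR, and it was 0.66 when the shared wells were added as 1 saline library. Shared saline wells 1 and 3 had 0.929 and 0.964 CPM, above PFF 1.

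**Figure D4:**
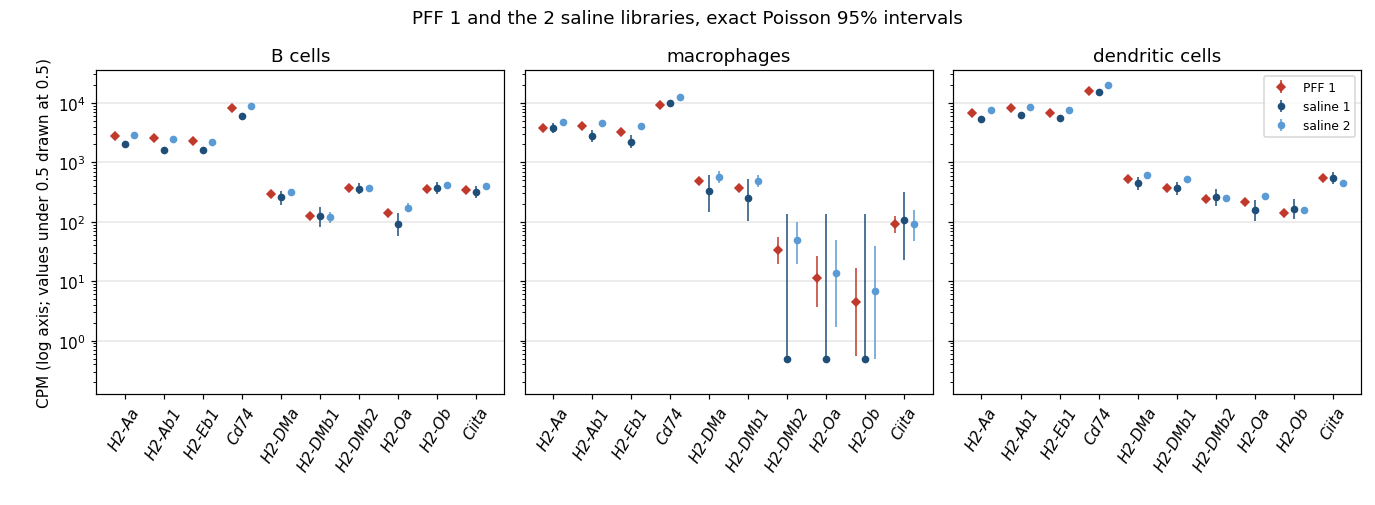
CPM (log axis) of the 10 class II genes in PFF 1, saline 1 and saline 2, from left to right for each gene, in B cells, macrophages and dendritic cells, with exact Poisson 95% intervals that cover counting error only. PFF 1 mostly lies between the saline libraries, as for H2-Ab1 in dendritic cells at 8222 CPM, against 6168 and 8546 CPM, and the macrophage values of saline 1 have the widest intervals.

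The pathway around the members was followed through 27 genes: regulators, the interferon gamma receptor, proteases, ubiquitin ligases of surface turnover, costimulatory genes and partners. In B cells over T cells 12 of them were higher and 8 lower (18.7% of all genes higher and 26.6% lower). In macrophages over T cells the counts were 13 and 4 (16.7% of all genes higher and 30.4% lower). In dendritic cells over T cells they were 16 and 8 (21.6% of all genes higher and 34.8% lower). Spi1, which encodes the myeloid and B cell factor PU.1, had log2 fold changes of 7.83, 10.01 and 10.69 in those contrasts. March1, the ligase that marks surface class II for turnover, was higher in the same 3 contrasts at 8.98, 7.97 and 8.48. Cd40, through which helper T cells license presenting cells, was at 9.33, 7.93 and 8.04. In enterocytes over T cells 8 of 27 were higher and 11 lower, near the shares of all genes (34.2% higher and 40.5% lower). Among them were Ifngr2, a chain of the interferon gamma receptor, at 7.30 ± 0.27, and Lag3, an inhibitory T cell receptor that binds class II, at −7.25 ± 0.39.

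Macrophages over dendritic cells gave 8 pathway genes higher and 2 lower, where 8.62% of all genes were higher and 12.2% lower. Cd4, present on some mouse macrophages, was higher at 5.42 ± 0.49. Of the proteases, Ctsd was higher at 4.14 ± 0.36, Lgmn at 3.66 ± 0.24 and Ctsl at 2.90 ± 0.26, with Ctsb and Ctss also higher. Cd86, a costimulatory ligand, and Ifi30, a lysosomal thiol reductase, were the 2 lower genes. In B cells over dendritic cells 12 were lower and 4 higher, where 21.7% of all genes were lower and 24.3% higher. Cd80 at −3.70 ± 0.35, Ctsb at −2.86 ± 0.21, Spi1 at −2.86 ± 0.29 and Cd86 at −2.51 ± 0.26 had the largest values. In PFF 1 over saline none of the pathway genes tested was called in any class. The largest value was 2.42 ± 1.10 for Cd80 in macrophages (edgeR adjusted p = 0.920), followed by 2.30 ± 1.39 for March8 in dendritic cells.

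The genes whose levels ran most like the summed members over the 29 class sums were Ly86 (Pearson r of 0.989 on log2(CPM + 1)), Pkib (0.989), Spi1 (0.984), Rnase6 (0.982) and Plekho1 (0.981), followed by Fgd2, Unc93b1, Kynu, March1 and Pld4 down to 0.972. The sums share wells and depth, so these coefficients are descriptions without a test. Among the members, H2-Aa tracked the sum at 0.999, while H2-DMb2 did so at 0.885, H2-Oa at 0.785 and H2-Ob at 0.694. Ly86, which encodes the MD-1 partner of the toll-like receptor relative RP105, had medians of 351 CPM in B cells, 547 CPM in macrophages and 425 CPM in dendritic cells, against 0.0957 CPM in enterocytes and 0.559 CPM in T cells.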

How the data were processed

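Raw UMI counts per gene and barcode were used as deposited. They were made with Cell Ranger 7.0.0, per the file headers, on the mm10 build, per the submitters' processing notes; the libraries followed the 10x 3' v3 protocol, per the labels. Cells were kept at 500 UMIs, 200 genes and at most 15% mitochondrial UMIs. A class needed 3 of 10 markers with a UMI for B cells, 3 of 9 for macrophages, 3 of 10 for dendritic cells, 4 of 10 for enterocytes and 2 of 3 for T cells. The 1337 cells that met more than 1 gate were left out, which was also the treatment of doublets, as were 1679 that met none and 7322 that failed the filters. Counts were summed per class and well where at least 10 cells were present, and tested by the quasi-likelihood method of edgeR 4.0.16 (R 4.3.3) after filterByExpr and TMM scaling, in 1 fit over classes with the well as a block, and in 1 fit per class for PFF 1 against saline. Standard errors are the absolute log2 fold change divided by the square root of the F statistic. Ratios used exact sign-flip permutation tests in scipy 1.17.1 under Python 3.11.15. Intervals are exact Poisson 95% intervals, which cover counting error only, as does the limit of 3 counts. The fits were tested on simulated data with 200 changed genes. In B cells over dendritic cells on 8556 genes, the class fit recovered 51.5% of 2-fold and 96.5% of 4-fold changes. The fit of PFF 1 against saline recovered 60.5% of 4-fold changes in B cells on 8719 genes and 53.5% in macrophages on 4051 genes. It recovered 60.0% in dendritic cells on 9664 genes, 21.5% in enterocytes on 12069 genes and 75% in T cells on 15795 genes. The simulation used a fixed dispersion, not estimated from these data, so the shares hold for that spread alone. The members, the gene lists and the tests were chosen with earlier results of these data known. All members are reported in every class; of the 27 pathway genes, the 4 with the largest absolute log2 fold change per contrast guided which were named, and the 10 most alike genes were taken by Pearson r. Ctsb and Ctss in macrophages, Cd86, Ifi30 and the repeated values of March1 and Cd40 were added to describe a count. Alternatives were no filter, RLE scaling, DESeq2 1.42.0, other cell filters and gates, removal of the highest Scrublet scores (scanpy 1.11.5), and other uses of the shared wells. Removing barcodes found in more than 1 well was added after the data were seen. H2-Ea was not analysed here. Gene positions come from GENCODE M21.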

Additional observations from a re-analysis of the deposited data

Results flagged for a closer look

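H2-Aa in macrophages of shared saline well 1 stood at 9070 CPM, far above the other saline wells. The well held 18 macrophages, whose B cell markers summed to 546 CPM and dendritic markers to 665 CPM, against 153 to 537 CPM and 349 to 681 CPM in the other saline wells. Their part in the value was not tested. H2-Ob in enterocytes of saline 2 stood at 0.122 CPM where the other saline wells had 0, and this is 1 UMI. These were 2 of 49 groups of wells looked at, and chance flags about 1 in 20. Cells outside the 5 classes also carried class II RNA. Plasma cells, 50 in all wells, had 1906 CPM of Cd74 with 24.3 CPM of H2-Aa. Plasmacytoid dendritic cells, 74 in all wells, had 2454 CPM of Cd74 with 866 CPM of H2-Aa.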

How the results depend on the processing

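Of 960 member fold changes between classes over the alternatives, 909 kept their direction and side of the threshold, 39 lost the call, 2 gained it and 10 turned. Of 89 between PFF 1 and saline, 82 kept their direction and 7 turned. Those 89 cover only H2-Ab1 in B cells, macrophages, dendritic cells and enterocytes, Cd74 in B cells, H2-DMb1 in dendritic cells and H2-Ob in T cells. The other members were not followed over the alternatives in PFF 1 against saline. Calls in PFF 1 over saline moved as follows. B cells gave 0, and 1 each with no filter, the stricter gate and barcodes in more than 1 well removed. Macrophages gave 16, then 1 by DESeq2, 49 with the shared wells as 1 library, 30 with each shared well as a library and 49 with conflicting cells given to 1 gate. Dendritic cells gave 20, then 1 by DESeq2 and 2, 0 and 6 under those last 3 settings. Enterocytes gave 2, then 4 with no filter, 1 by DESeq2 and 0 with the shared wells as 1 library, with each as a library, at 1000 UMIs, and with the stricter gate, conflicting cells, Scrublet or shared barcodes. T cells gave 2, then 111 with no filter, 4 by DESeq2 and 0 under both uses of the shared wells. Macrophages over dendritic cells gave 2375 calls and 1519 on the unshared wells and PFF 1 alone. The causes were not tested.

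Without either saline replicate, Cd74 in PFF 1 B cells ran from −0.0769 to 0.57, H2-Ab1 in dendritic cells from −0.14 to 0.56, H2-DMb1 there from −0.57 to 0.16 and H2-Ab1 in macrophages from −0.20 to 1.00. That last value was −0.0324 with the shared wells as 1 library, −0.30 with each as a library and −0.0321 with conflicting cells. In enterocytes over T cells, conflicting cells turned H2-Aa to −1.39, H2-Ab1 to −0.13, H2-Eb1 to −1.27 and Cd74 to −1.29. Leaving out each well, H2-Aa there ran from −0.0017 to 0.44 and H2-Eb1 from −0.019 to 0.48. H2-Eb1 was −0.43 on the unshared wells and PFF 1 alone, and Ciita was 0.26 with the stricter gate. H2-DMb1 in macrophages over dendritic cells was −0.0338 with no filter and −0.16 on the unshared wells and PFF 1 alone. Of 108 ratio differences 56 kept their side, 50 lost it and 2 gained it; 5 wells cannot go below an exact p of 0.0625. Of 60 shares after thinning, 30 moved.

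The macrophage fit of PFF 1 could not be made at 1000 UMIs or with the stricter gate, since saline 1 then had under 10 cells. No paired analysis was possible because PFF and saline share only replicate number 1. H2-DMb2, H2-Oa and H2-Ob had 34, 9 and 4 UMIs over all macrophages and 4, 0 and 2 over all enterocytes, which limits their precision there.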

Other observations

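Subsets within classes were compared over the 6 wells by 12 exact sign-flip permutation tests, chosen after the values had been seen and not repeated under other settings. Several wells held few cells of a subset: cDC1 numbered 3 or 4 in 3 wells, germinal centre B cells 3 to 5 in 3 wells, and shared saline well 1 had 10 other B cells. None reached an adjusted p under 0.05, and the lowest was 0.0625. Germinal centre B cells (262 cells) had less H2-Aa than the other 899 B cells in 6 of 6 wells, with medians of 1703 and 3077 CPM (exact p = 0.03125). Cd74 had medians of 5612 CPM in germinal centre B cells and 9300 CPM in other B cells, and H2-DMb1 had 80.2 and 169 CPM, each lower in 6 of 6 wells with the same exact p. H2-Eb1, H2-DMb2 and H2-Oa also lay lower in 6 of 6 wells. Among dendritic cells, H2-DMb2 over H2-DMb1 was 0.141 in cDC1 (46 cells) and 0.715 in cDC2 (175 cells), lower in 5 of 6 wells (exact p = 0.0625, adjusted 0.0833).

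H2-Eb2, a neighbour of H2-Eb1 that is no member and was looked at after its values were seen, had 203 CPM in B cells, 3.83 CPM in macrophages and 17.8 CPM in dendritic cells over all wells, against 0.0378 CPM in enterocytes and 3.96 CPM in T cells. Plasmacytoid dendritic cells had 129 CPM of H2-Oa but 7.60 CPM of H2-Ob and 11.4 CPM of H2-DMb2. Plasma cells had 111 CPM of H2-Ab1, 2.11 CPM of Ciita and no H2-Oa UMI.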
